A study of Homo sapiens with 3 samples.

Results

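The genes described here were 10 human splicing factors of the serine/arginine-rich (SR) family, SRSF1, SRSF2, SRSF3, SRSF4, SRSF5, SRSF6, SRSF7, SRSF9, SRSF10 and SRSF11, together with every transcript listed under their names. They were picked out of the tables by gene name and took up 25 of the 47239 transcripts in each table and 10 of the 19262 genes with at least 1 protein-coding transcript. Of the 25 transcripts, 20 were RefSeq coding transcripts (accessions starting with NM) and 5 were RefSeq noncoding transcripts (accessions starting with NR), 1 each for SRSF1, SRSF2, SRSF3, SRSF6 and SRSF10. Ribosome footprints, the short stretches of RNA that a ribosome shields from nuclease, had been sequenced from 3 human lung lines, with no treatment named: HBE, of bronchial epithelium, A549, a lung adenocarcinoma line, and H1299, a large-cell lung carcinoma line. The study asked which RNAs annotated as noncoding are bound and translated by ribosomes. Each line was represented by 1 library, so there was no replicate error. The 95% intervals given below cover counting error only, and no difference between lines was tested.

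SR proteins bind RNA through an RNA recognition motif and contact other splicing proteins through a domain rich in arginine and serine, and by binding exons they help to recruit the splicing machinery to nearby splice sites. Many of them also regulate their own genes: when the protein is abundant, its transcript is spliced to include a highly conserved cassette exon that brings in an early stop codon, often called a poison exon, and such transcripts are substrates of nonsense-mediated decay. RefSeq lists several of these transcripts as noncoding RNAs of the host gene, although they carry the start codon and much of the sequence of the coding transcript.

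The libraries of HBE, A549 and H1299 held 43580281, 38268527 and 35751992 mapped reads, of which 34505579, 31304697 and 28478839 lay on coding transcripts. The markers of the lines followed their labels for most genes: the basal keratin KRT17 had 34593, 46 and 96 reads in HBE, A549 and H1299, the NRF2 target AKR1B10 had 633, 68393 and 1057, and the mesenchymal filament gene VIM had 124, 15327 and 43694. The basal keratin KRT14 was low in HBE too, at 54 reads, against 16 and 14 in the other lines. Genes of other cell types were low but not at 0, with 28 to 41 reads on CD3E of T cells and 342 to 564 on PTPRC of leukocytes.

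The noncoding transcripts of SRSF3 and SRSF6 are set out with their sequences because they carried a large share of the footprints of the family. SRSF3, the smallest SR protein and an adaptor for mRNA export, lies on the plus strand at chr6:36562130-36573377 (GRCh37, called hg19, with genes from GENCODE). Its noncoding transcript NR_036610 is 3600 nt long and its coding transcript NM_003017 is 3144 nt long. The difference of 456 nt equals the length of 1 cassette exon, chr6:36567598-36568053, which GENCODE has as exon 4 of 7 in a shorter transcript of the gene. In that transcript the reading frame ran for 124 codons, against 164 in the full protein, and met a stop codon TGA at position 32 of the cassette exon. In the sequence of the exon from its start to that stop, chr6:36567598-36567631 on the plus strand, capitals mark the stop codon. In the splice junctions, the sequence upstream of the junction is in lower case and the exon that follows is in capitals.
SRSF3 cassette exon to its stop: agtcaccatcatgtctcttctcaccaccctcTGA
SRSF3 junction with the cassette exon: tccacctcgtcgcagAGTCACCATCATGTC
SRSF3 junction without the cassette exon: tccacctcgtcgcagATCTCCAAGAAGGAG

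The first junction joins chr6:36566746-36566760 to chr6:36567598-36567612 and belongs to the transcript with the cassette exon. The junction that skips the exon joins the same upstream end to chr6:36568929-36568943 and belongs to the coding transcript.

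SRSF6, an SR protein with a pair of RNA recognition motifs, lies on the plus strand at chr20:42086533-42094686. Its noncoding transcript NR_034009 is 4023 nt and its coding transcript NM_006275 is 3755 nt long. The difference of 268 nt equals the length of the cassette exon chr20:42087793-42088060, exon 3 of 7 in a GENCODE transcript of the gene. Translation of that transcript would stop after 135 codons, against 344 in the full protein, at a TAG in position 150 of the exon. The stretch from the exon start to the stop is chr20:42087793-42087944, with the stop codon in capitals, and the junctions are written as for SRSF3.
SRSF6 cassette exon to its stop: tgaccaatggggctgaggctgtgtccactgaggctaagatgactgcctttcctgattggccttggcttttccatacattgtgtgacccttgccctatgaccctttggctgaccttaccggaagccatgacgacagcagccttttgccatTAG
SRSF6 junction with the cassette exon: gctacggaagccgcaTGACCAATGGGGCTG
SRSF6 junction without the cassette exon: gctacggaagccgcaGTGGTGGAGGTGGAT

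The junction with the exon joins chr20:42087135-42087149 to chr20:42087793-42087807, and the junction without it joins the same upstream end to chr20:42088411-42088425. In both genes the cassette exon is followed by several more exons, 3 in SRSF3 and 4 in SRSF6.

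**Figure D1:**
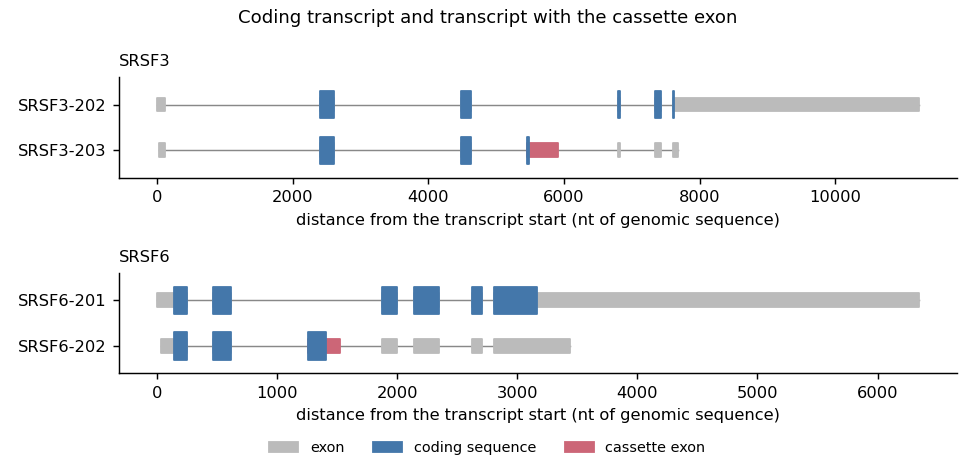
Exons of the coding transcript and of the GENCODE transcript with the cassette exon for SRSF3 and SRSF6, against the distance from the transcript start in nt of genomic sequence, with coding sequence as tall blue blocks, other exon sequence in grey and the cassette exon in red. In the lower transcript of each panel the coding sequence ends within the cassette exon, after 124 and 135 codons.

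Almost all SRSF3 and SRSF6 footprints were listed on the noncoding transcript. NR_036610 of SRSF3 had 7940, 10480 and 10397 reads in HBE, A549 and H1299. The coding transcript NM_003017 had 55, 55 and 47. The noncoding share of SRSF3 reads was therefore 99.3% (99.1 to 99.5%), 99.5% (99.3 to 99.6%) and 99.6% (99.4 to 99.7%) in HBE, A549 and H1299, and the noncoding transcript had 144, 191 and 221 times the reads of the coding one. NR_034009 of SRSF6 had 4545, 3847 and 3831 reads in HBE, A549 and H1299, whereas NM_006275 had 12, 9 and 13. Its noncoding share was 99.7% (99.5 to 99.9%), 99.8% (99.6 to 99.9%) and 99.7% (99.4 to 99.8%). The 3 lines overlapped in their intervals for SRSF6, and for SRSF3 HBE and H1299 had overlapping intervals as well.

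These listings do not show that the footprints came from RNA with the cassette exon. The exon was placed in each noncoding transcript by its length, since the RefSeq sequences were not used here. Neither SRSF3 nor SRSF6 had a listed transcript start equal to a GENCODE start. Over windows of 28 nt, a length chosen for a footprint, 86.5% of the positions of the SRSF3 transcript with the exon were identical in the coding transcript, and 13.5% (483 of 3573) held the cassette exon or 1 of its junctions. For SRSF6 the shared part was 92.6%, and 7.38% (295 of 3996) was found only with the exon. The coding transcripts held 27 windows of their own each, those over the skipping junction. These were 0.866% of the 3117 windows of the SRSF3 coding transcript and 0.724% of the 3728 windows for SRSF6. The coding transcripts had 0.688, 0.522 and 0.450% of the SRSF3 reads and 0.263, 0.233 and 0.338% of the SRSF6 reads in HBE, A549 and H1299. The windows cover the whole transcript, while the coding sequence is 492 nt for SRSF3 and 1032 nt for SRSF6. With the cassette exon the frame ends at position 32 of its 456 nt in SRSF3 and 150 of 268 nt in SRSF6. Window shares are therefore not the read shares that either transcript would give. Reads in the shared windows fit both transcripts equally. The paper lists the options of the mapping, but does not say how they placed such reads. Read positions were not analysed here, so footprints on transcripts that skip the exon and footprints on transcripts that include it cannot be told apart in these values.

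The other 3 noncoding transcripts carried few reads. SRSF2, a factor that activates exons through enhancer sequences and is recurrently mutated in myeloid neoplasms, lies on the minus strand at chr17:74730197-74733415. It overlaps MFSD11 on the other strand, and whether the counting used strand is not stated. Its noncoding transcript NR_036608 had 18, 31 and 24 reads in HBE, A549 and H1299, 1.34% (0.795 to 2.11%), 2.03% (1.38 to 2.87%) and 1.73% (1.11 to 2.57%) of the reads of the gene. The intervals of the 3 lines overlapped. This transcript too differs from a coding one, NM_001195427, by the length of 1 cassette exon, the 104 nt at chr17:74731854-74731957. NM_001195427 had 16, 19 and 8 reads, fewer than the noncoding transcript in each line and most so in H1299.

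SRSF10, which represses splicing when it is dephosphorylated in mitosis and after heat shock, lies on the minus strand at chr1:24290837-24307417. Its noncoding transcript NR_034035 had 12, 20 and 39 reads in HBE, A549 and H1299. The share was 0.685% (0.355 to 1.19%), 1.19% (0.731 to 1.84%) and 2.24% (1.596 to 3.05%) in HBE, A549 and H1299. HBE and H1299 did not overlap by counting error, while A549 overlapped both. SRSF1, the founding member of the family and a proto-oncogene, lies on the minus strand at chr17:56078280-56084707. Its noncoding transcript NR_034041 had 0, 1 and 2 reads in HBE, A549 and H1299. For the 0 in HBE the exact interval of the share reached 0.142%. NR_034041 is 921 nt shorter than NM_001078166, the length of the intron chr17:56081363-56082283 that 1 GENCODE transcript removes. For comparison, 378 transcripts of olfactory receptors, genes of the nose, had a median of 20, 26.5 and 23 reads in HBE, A549 and H1299. This is of the order of the reads on the noncoding transcripts of SRSF2 and SRSF10. Their 95th percentile was 140, 191 and 163 reads. The coding transcripts of SRSF3, at 47 to 55 reads, and SRSF6, at 9 to 13, also lay under it, which limits the ratios and levels based on them.

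**Figure D2:**
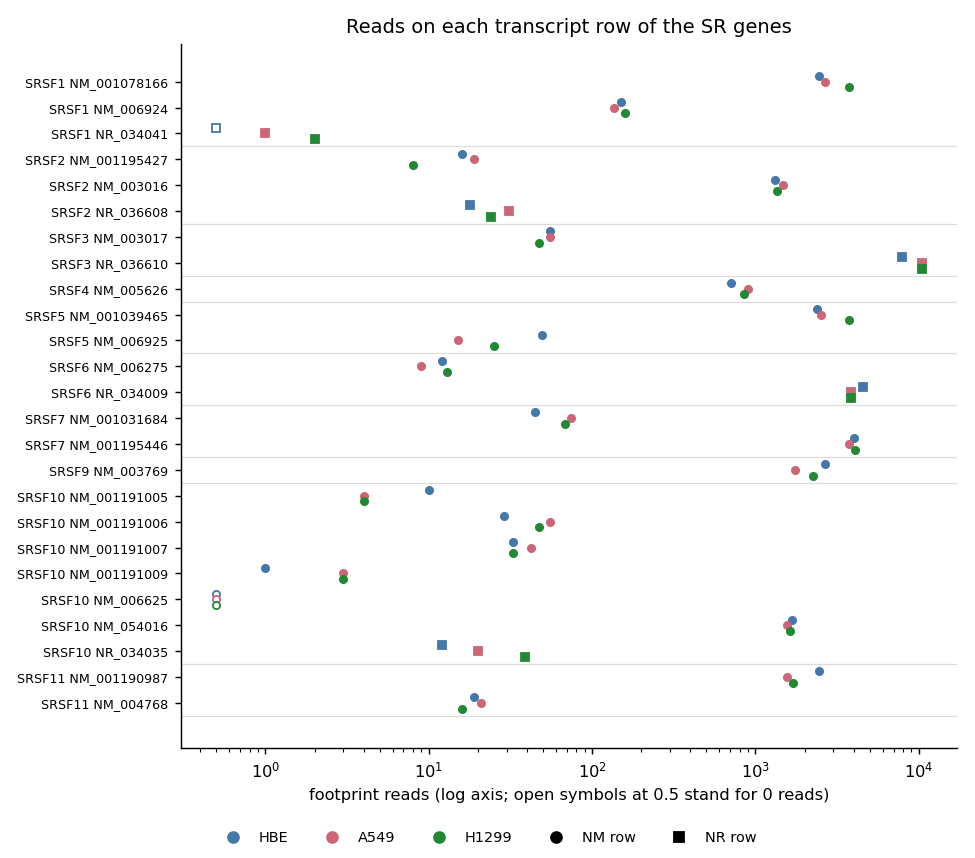
Footprint reads on each of the 25 transcripts, 1 point per line and transcript on a log axis, with circles for coding (NM) and squares for noncoding (NR) transcripts and open symbols at 0.5 standing for 0 reads. The noncoding transcripts of SRSF3 and SRSF6 lie between 3831 and 10480 reads and those of the other 3 genes between 0 and 39.

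A high noncoding share was not particular to these genes. Among the genes with both kinds of transcript and at least 100 reads, 1352, 1391 and 1381 in HBE, A549 and H1299, the median noncoding share was 1.64, 1.85 and 1.92%. A share of at least 50% was found in 2 of the 5 SR genes with both kinds, SRSF3 and SRSF6, in each line, against 17.8, 17.6 and 17.9% of all such genes. The same 2 of 5 had a share of at least 10%, against 26.8, 26.5 and 27% of all such genes. Ranked from the highest share, SRSF6 stood at position 8, 6 and 12 in HBE, A549 and H1299, and SRSF3 at 22, 12 and 19. The other 3 genes were near or under the median, with SRSF1 at position 1206 of 1352 in HBE. At least 10 reads were found on 4 of the 5 noncoding transcripts in every line. Of the 2399 noncoding transcripts of genes with a coding one, 31.3%, 34.8% and 33.8% reached this in HBE, A549 and H1299. These 2399 include genes with few reads, as no minimum per gene was set, whereas the 5 SR genes had at least 1345 reads in each line. The 4 of 5 is therefore not set against genes of like level.

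**Figure D3:**
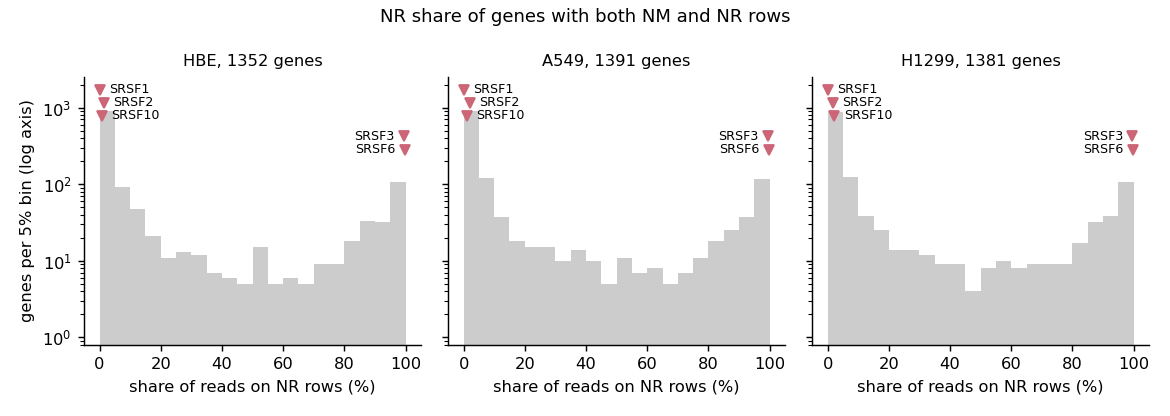
Number of genes (log axis) by the share of their reads on noncoding transcripts, in bins of 5%, for genes with both kinds of transcript and at least 100 reads, with 1 panel per line and the 5 SR genes marked by red triangles. SRSF3 and SRSF6 lie in the last bin, at 99.3% or above, and SRSF1, SRSF2 and SRSF10 in the first, at 2.24% or below.

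Over the family the noncoding transcripts held 41.0% (40.4 to 41.5%), 46.4% (45.9 to 47.0%) and 42.0% (41.5 to 42.6%) of the reads of HBE, A549 and H1299. Nearly all of these reads were those of SRSF3 and SRSF6. Without SRSF3 the share was 20.3%, 19.1% and 16.5% in HBE, A549 and H1299, so the position of A549 above the other lines rested on SRSF3.

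The concentration of reads on 1 transcript was also seen between coding transcripts. All 8 SR genes with several transcripts had over 90% of their reads on 1 of them in each line, from 94.2 to 99.7%, 92.6 to 99.8% and 92.8 to 99.7%. Among all genes with several transcripts, 69.8%, 68.9% and 68.1% in HBE, A549 and H1299 reached 90%. For every SR gene the most-read transcript was the same in the 3 lines. It was the longest one in 6 of the 8 genes, SRSF7 and SRSF11 being the exceptions, against 37.6, 37.5 and 37.9% of all genes with several transcripts.

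The paired transcripts of SRSF1 and SRSF2 differed by the lengths of introns. NM_001078166 of SRSF1 is longer by 200 nt, the length of an intron at chr17:56082962-56083161 in another GENCODE transcript. It had 2441, 2670 and 3730 reads in HBE, A549 and H1299, against 151, 136 and 159 on the shorter NM_006924. For SRSF2, NM_003016 is longer than NM_001195427 by 995 nt, the length of an intron at chr17:74731241-74732235, and it had 1311, 1476 and 1352 reads. As with SRSF3 and SRSF6, the transcript with the extra stretch had most of the reads and the stretch itself was not counted separately.

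SRSF5, known in rat for its induction in regenerating liver, lies on the plus strand at chr14:70193617-70238722. It had 2367, 2520 and 3743 reads on NM_001039465 and 49, 15 and 25 on NM_006925. SRSF7, which binds RNA with the help of a zinc knuckle and acts in mRNA export, lies on the minus strand at chr2:38970741-38978636. It had 4018, 3763 and 4079 reads on NM_001195446 and 45, 74 and 68 on NM_001031684, although the latter is the longer, at 2489 against 2453 nt. SRSF11, at chr1:70671365-70718735 on the plus strand, had 2432, 1554 and 1685 reads on NM_001190987 and 19, 21 and 16 on NM_004768. Of the 6 coding transcripts of SRSF10, NM_054016 had 1666, 1551 and 1617 reads, and the other 5 had between 0 and 55. NM_006625, the 1 coding transcript of the family without a read in any line, was among them. The tables place 3 of the 25 transcripts, all of SRSF10, on an unlocalised contig of chromosome 1. SRSF4, at chr1:29474255-29508412, and SRSF9, at chr12:120899475-120933749, both on the minus strand, were listed with 1 transcript each.

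Since the transcripts of a gene share most of their sequence, the level of each gene was taken as the sum over its transcripts in RPM, here reads per 1000000 reads on coding transcripts. The family as a whole had 30531, 30981 and 34006 reads in HBE, A549 and H1299, or 885, 990 and 1194 RPM. As footprint density, the level reflects both the amount of mRNA and its translation, and in a bulk library less RNA per cell and fewer cells with the RNA cannot be told apart. SRSF3 had the highest level in each line, 232, 337 and 367 in HBE, A549 and H1299, and 26.2, 34.0 and 30.7% of the reads of the family. By its coding transcript alone it would have stood at 1.59, 1.76 and 1.65 RPM, and SRSF6 at 0.348, 0.287 and 0.456. The gene levels of SRSF3 and SRSF6 thus depend almost wholly on counting the noncoding transcript.

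SRSF6 had 132, 123 and 135 RPM in the same order of lines, and SRSF7 118, 123 and 146. These genes, with SRSF3, made up the top 3 in HBE and A549. In H1299 they were joined by SRSF1 and SRSF5, whose levels there overlapped that of SRSF6. SRSF1 had 75.1, 89.7 and 137 RPM and SRSF5 70.0, 81.0 and 132. SRSF4, the member with the longest arginine/serine domain, had the lowest level in each line, 20.5, 28.6 and 29.7 in HBE, A549 and H1299. SRSF2 came next with 39.0, 48.7 and 48.6, where its A549 value overlapped those of SRSF11 and SRSF10. SRSF9, a regulator of exon choice related to SRSF1, had 76.9, 55.6 and 78.6, SRSF10 had 50.7, 53.5 and 61.2, and SRSF11 had 71.0, 50.3 and 59.7. Thus A549 was the lowest line for SRSF6, SRSF9 and SRSF11, whereas H1299 was the highest for SRSF1, SRSF3, SRSF5, SRSF7 and SRSF10, with intervals apart from both other lines. With library sizes scaled by the trimmed mean of M values (TMM) H1299 was no longer above HBE for SRSF7 and SRSF10, at log2 ratios of -0.06 and -0.09.

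**Figure D4:**
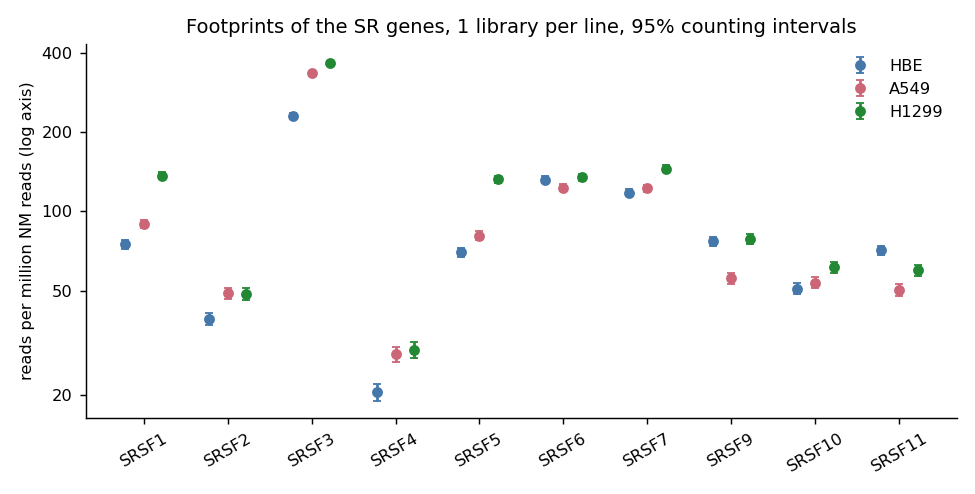
RPM, reads per 1000000 reads on coding transcripts (log axis), for each of the 10 SR genes, summed over coding and noncoding transcripts, with 1 point per line and bars for the 95% counting interval. SRSF3 is the highest gene in every line, at 232 to 367 RPM, and SRSF4 the lowest, at 20.5 to 29.7.

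The order of genes depended on the length used. In RPM per kilobase of coding sequence, SRSF3 led with 471, 684 and 745 in HBE, A549 and H1299, SRSF7 followed with 165, 172 and 204, and SRSF4 was last with 13.8, 19.3 and 20.04. By RPKM, the reads per kilobase of the whole transcript and per 1000000 mapped reads, of the most-read transcript, SRSF3 had 50.6 (49.5 to 51.7), 76.1 (74.6 to 77.5) and 80.8 (79.2 to 82.3) in HBE, A549 and H1299. In HBE it overlapped SRSF9, at 50.6 (48.7 to 52.6), which has one of the shortest transcripts. Behind them in HBE came SRSF7 at 37.6, SRSF5 at 32.9, SRSF6 at 25.9, SRSF11 at 19.9 and SRSF10 at 12.5, then SRSF2 and SRSF1, which overlapped at 10.02 and 9.88, and SRSF4 at 6.39. In A549 the RPKM of SRSF7, SRSF5 and SRSF9, at 40.1, 39.9 and 37.8, formed an overlapping group, as did SRSF11, SRSF10, SRSF2 and SRSF1 between 14.5 and 12.3 from each to the next. In H1299 SRSF5, at 63.4, stood above SRSF9 at 52.0 and SRSF7 at 46.5, and SRSF4 was again lowest at 9.33. SRSF3 at the top and SRSF4 at the bottom were therefore common to both scales, apart from the tie of SRSF3 and SRSF9 by RPKM in HBE.

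A549 was compared with HBE to see how the factors differ between a cancer line and the bronchial line. SRSF3 was higher in A549, with 10535 reads against 7995 and a ratio of 1.45 (1.41 to 1.495), or a log2 ratio of 0.54. On the coding transcript alone the log2 ratio was 0.14, from 55 reads in each line. With a counting interval of 41.4 to 71.6 reads in each, that ratio is imprecise. SRSF4 had 895 against 706 and a ratio of 1.40 (1.26 to 1.54). SRSF11, at 1575 reads against 2451, and SRSF9, at 1740 against 2655, were lower, with ratios of 0.708 (0.664 to 0.755) and 0.722 (0.680 to 0.768). The ratio of SRSF6 was 0.933 (0.893 to 0.974), while those of SRSF7 and SRSF10 had intervals that held 1. No member was 1.5 times higher or lower in A549 (nor 2 times), against 30.5% of all 18695 genes compared that were higher and 9.02% that were lower by 1.5 times, and 11.8 and 4.35% by 2 times. The median log2 ratio of the members was 0.14 and that of all genes 0.35, and only SRSF3 and SRSF4 lay above the latter. The shift of all genes depended on the total used: under TMM the median of all genes was 0.01 and 13.0% of the genes were higher and 17.3% lower. Under TMM 5 members, SRSF1, SRSF2, SRSF5, SRSF7 and SRSF10, turned to the other side of 0, and SRSF9 and SRSF11 were at least 1.5 times lower. The log2 ratio of the family sum was 0.16 (0.14 to 0.18), -0.18 under TMM and 4.1e-05 without SRSF3, so that its direction depended on the total used and on 1 gene.

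In H1299 against HBE, SRSF5 and SRSF1 had the largest ratios. SRSF5 had 3768 reads in H1299 and 2416 in HBE, a ratio of 1.89 (1.80 to 1.99). SRSF1 had 3891 and 2592 reads, a ratio of 1.82 (1.73 to 1.91). With SRSF3, at 10444 and 7995 reads and 1.58 (1.54 to 1.63), these were the 3 of 10 members at least 1.5 times higher, against 34.2% of the 18644 genes compared. The reads behind the SRSF3 ratio were nearly all on its noncoding transcript. On coding transcripts alone its log2 ratio was 0.05 against 0.66, from 47 and 55 reads. The counting intervals of these reads were 34.5 to 62.5 and 41.4 to 71.6, so this ratio is imprecise. SRSF3 was also under 1.5 times, at a log2 ratio of 0.50, with upper quartile scaling and without the 10 most-read coding transcripts. No member was 1.5 times lower, against 11.4% of all genes, and none differed by 2 times, against 14.4% of genes higher and 6.37% lower. SRSF11 was the 1 member with a lower RPM in H1299, at 1701 and 2451 reads and 0.841 (0.790 to 0.895). SRSF6 and SRSF9 had ratios of 1.02 each, with intervals that held 1.

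The count of 3 of 10 is near the share of all genes, and the median log2 ratio of the members, 0.31, lay close to the 0.38 of all genes. Measured from that median, the intervals of 4 members lay above it (SRSF1, SRSF3, SRSF4 and SRSF5) and those of 5 below. Under TMM, where 15.3% of all genes were higher and 19.3% lower, no member was 1.5 times higher and SRSF11 was 1.5 times lower. SRSF2, SRSF6, SRSF7, SRSF9 and SRSF10 then changed sides of 0. The log2 ratios of SRSF5, SRSF1 and SRSF3 remained positive under TMM, at 0.56, 0.50 and 0.30. The family sum had a log2 ratio of 0.43 (0.41 to 0.45), and 0.07 under TMM.

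H1299 against A549 compared the cancer lines with each other. SRSF5 and SRSF1 were again the members at least 1.5 times higher in H1299, with ratios of 1.63 (1.55 to 1.72) and 1.52 (1.45 to 1.6), or 2 of 10 against 15.3% of the 18708 genes compared. None was 1.5 times lower, against 14.6% of all genes, and none differed by 2 times, against 6.15% of genes higher and 6.86% lower. SRSF9 followed with 1.41 (1.33 to 1.51). The intervals of 8 members lay above the median of all genes, a log2 ratio of 0.02, and those of SRSF2 and SRSF4 held it. The family sum had a log2 ratio of 0.27 (0.25 to 0.29), and 0.25 under TMM, which moved the median of all genes little here. The count of 2 of 10 is near the share of all genes, and per all mapped reads SRSF1 was under 1.5 times, at a log2 ratio of 0.57. The 3 comparisons share libraries, so that SRSF1 and SRSF5 are counted in both comparisons with H1299 through the same H1299 library.

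**Figure D5:**
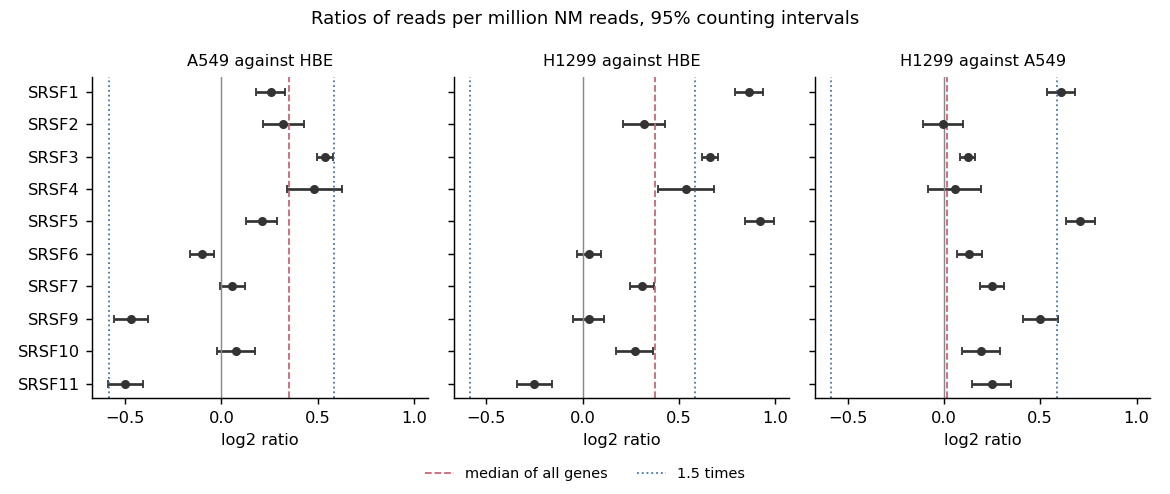
Log2 ratios of RPM for the 10 SR genes in the 3 comparisons, with bars for the 95% counting interval, a dashed line at the median of all genes and dotted lines at 1.5 times in each direction. SRSF1, SRSF3 and SRSF5 lie past 1.5 times higher in H1299 against HBE, and SRSF1 and SRSF5 in H1299 against A549.

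By the profile over the 3 lines, each centred on its own mean log2 level, the genes nearest to the family sum among 3063 genes with at least 1000 reads in every library were HMGXB4, HNRNPF, ARID1B, COX7B and MDH2. Their Euclidean distances were 0.0108 to 0.0230 log2 units, and 102 genes lay within 0.1, so the profile was a common one. HNRNPF, an RNA-binding protein that recognises runs of guanine, had 110, 125 and 149 RPM in HBE, A549 and H1299.

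The partners of the SR proteins were read from 5 lists of splicing and decay genes. Of all genes, 30.5% were at least 1.5 times higher and 9.02% lower in A549 than in HBE. In H1299 the shares were 34.2 and 11.4% against HBE, and 15.3 and 14.6% against A549. Under TMM the shares against HBE were 13.0 and 17.3% in A549, and 15.3 and 19.3% in H1299. The counts of the lists were not recomputed under TMM. In the list of 10 SR kinases, import receptors and export factors, 1 gene was at least 1.5 times higher and 1 lower in A549 than in HBE, namely TNPO1, a nuclear import receptor, at 2.14 (2.04 to 2.24), and SRPK1, the main cytoplasmic SR protein kinase, at 0.579 (0.552 to 0.607). SRPK1 had 5033, 2642 and 5212 reads in HBE, A549 and H1299, so that A549 stood apart from the other lines. In H1299 against HBE 1 gene was higher, TNPO1 at 1.82 (1.74 to 1.91), and 1 lower, CLK2, a nuclear kinase of SR proteins, which at 0.666 (0.581 to 0.762) was just past the limit. In H1299 against A549 1 gene was higher, SRPK1 at 2.17 (2.07 to 2.27), and 0 were lower. The median log2 ratio of the list was -0.09, 0.06 and 0.07 in A549 against HBE, H1299 against HBE and H1299 against A549.

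Among 15 SR-like regulators, which carry arginine/serine stretches, 1 gene was higher and 1 lower in A549 than in HBE, 6 and 1 in H1299 than in HBE, and 3 and 1 in H1299 than in A549. The gene that was lower each time was SRSF8, a close relative of SRSF2 in sequence, with 2306, 1298 and 626 reads in HBE, A549 and H1299. SRSF2 had 1345, 1526 and 1384 reads, and reads that fit both genes cannot be told apart. PNN, a protein of the exon junction complex and of desmosomes, had 2000, 1820 and 3722 reads. SRSF12, at 115 and 270 reads in HBE and A549, had a ratio of 2.58 (2.07 to 3.25). The 13 core splicing factors with arginine/serine domains had 3 genes higher and 3 lower in A549 than in HBE, 3 and 1 in H1299 than in HBE, and 5 and 0 in H1299 than in A549. RBM25 had 1867, 1876 and 3875 reads, and U2AF1, the small subunit that reads the end of the intron, had 1876 in A549 and 3662 in H1299. U2AF1L4, a relative of U2AF1, had 80, 221 and 325 reads in HBE, A549 and H1299, whereas LUC7L2, a factor of early splice site choice, had 10168 in HBE and 4483 in A549.

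Many of the 23 hnRNP proteins oppose SR proteins at exons. In A549 against HBE 3 were higher and 1 lower, against 30.5 and 9.02% of all genes. In H1299 against HBE 11 were higher and 1 lower, against 34.2 and 11.4%. For H1299 against A549 the counts were 8 and 1, against 15.3 and 14.6%. HNRNPUL1 had 2776, 5354 and 7457 reads in HBE, A549 and H1299, and PTBP2, the neuronal relative of the polypyrimidine tract binding protein, had ratios of 2.88 and 2.43 in A549 and H1299 against HBE. SYNCRIP, with 3686 reads in A549 and 10077 in H1299, and HNRNPA1, a gene with many pseudogene copies, with 6304 and 13267, differed most between the cancer lines. The 16 genes of nonsense-mediated decay, the pathway that degrades transcripts with a poison exon, had 3 higher and 1 lower in A549 than in HBE, 6 and 0 in H1299 than in HBE, and 6 and 1 in H1299 than in A549. UPF1, its central helicase, had 2818, 1318 and 3219 reads in HBE, A549 and H1299. SMG9, a regulator of the kinase SMG1, had 442, 414 and 2551, a ratio of 6.99 (6.32 to 7.75) in H1299 against HBE, and SMG1 itself had 2888 in HBE and 5097 in A549. UPF3B, which links the exon junction complex to UPF1, had 654 in HBE and 1152 in H1299. In A549 against HBE the median log2 ratios of the 5 lists lay between -0.09 and 0.18, below the 0.35 of all genes. In H1299 against HBE the medians of the SR-like, hnRNP and decay lists were 0.49, 0.44 and 0.46, above the 0.38 of all genes. Those of the kinase and import list and of the core factors were 0.06 and 0.09, below it. In H1299 against A549 the core, hnRNP and decay lists had medians of 0.34, 0.31 and 0.25, against 0.02 for all genes. The kinase and import list and the SR-like list had 0.07 and 0.03.

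Of the 10 partner genes with both kinds of transcript and at least 100 reads in each library, 3 had a noncoding share of at least 50%, against 17.8, 17.6 and 17.9% of all such genes. It was 99.3, 98.8 and 99.1% in HBE, A549 and H1299 for SON, a large nuclear speckle protein, 99.5, 98.4 and 97.0% for SRSF8, and 98.4, 98.3 and 98.6% for PRPF38B, a spliceosome protein. CLK1, a kinase that phosphorylates SR proteins, had 20.2, 14.3 and 17.8%. RNPS1, of the exon junction complex, had 10.6, 9.48 and 7.08%, and TNPO3, the import receptor of SR proteins, 7.76, 7.15 and 6.04%. The remaining shares listed were 1.66% or less, including those of SRPK1, RSRC2, RBM39 and HNRNPDL.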

How the data were processed

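Ribosome footprint libraries of HBE, A549 and H1299 cells, 1 per line, had been sequenced, and the authors mapped the reads to RefSeq RNA with FANSe2. The paper lists the options of the mapping for the footprint reads. It does not say what they do with reads that fit several transcripts, and the version of the program was not found. The submitters' processing notes name hg19. The deposited tables hold, per transcript, whole read counts and RPKM by the authors, relative to transcript length and all mapped reads.

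Reads were summed per gene name over coding and noncoding transcripts and divided by the reads on coding transcripts. Ratios used an added count of 0.5 read for the fold and exact conditional binomial 95% intervals, for genes with at least 20 reads over both libraries. Shares have Clopper-Pearson intervals and reads exact Poisson intervals (SciPy 1.17.1, Python 3.11.15). A gene was counted when it was past 1.5 or 2 times and its interval left out 1. TMM and upper quartile library sizes came from edgeR 4.0.16 (R 4.3.3), and no test was run. Alternatives were other totals, TMM and upper quartile scaling, coding transcripts alone, another added count, no read minimum, thinning to the smallest total, the median of the genes and leaving out the most-read gene. The computations were tested on simulated data. Gene positions and exons came from GENCODE 44 on GRCh37, and 6 of the 10 genes had a listed transcript start equal to a GENCODE start. SRSF3, SRSF4, SRSF6 and SRSF9 had none. Named genes were all members, the 5 nearest profiles and, per list, the 2 largest ratios of each pair and the highest noncoding shares. The members and lists were chosen with earlier results of these data known.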

Additional observations from a re-analysis of the deposited data

How the results depend on the processing

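No paired analysis was possible because there was 1 library for each line. The noncoding shares of single SR genes did not move beyond their intervals in the 30 recomputations made. These used summed RPKM or thinning to the smallest total, which leave the placement of reads between transcripts as it was. They therefore could not show how the shares depend on that placement. The log2 ratio of the family, 0.16 in A549 against HBE, was 0.21 per all mapped reads, -0.18 under TMM, -0.0389 under upper quartile scaling, 0.0029 without the 10 most-read coding transcripts, 0.0225 on coding transcripts alone and 4.1e-05 without SRSF3. In H1299 against HBE (0.43) it was 0.0701 under TMM, 0.27 under upper quartile scaling and 0.27 without the 10 most-read transcripts, 0.41 on coding transcripts, 0.31 as the median of the 10 genes and 0.34 without SRSF3. In H1299 against A549 (0.27) these were 0.23 per all mapped reads, 0.25 under TMM, 0.31 under upper quartile scaling, 0.38 on coding transcripts, 0.22 as the median and 0.34 without SRSF3. Members at least 1.5 times higher in A549 than in HBE numbered 1 per all mapped reads, against 34.0% of all genes. Those lower numbered 2 under TMM, upper quartile scaling or without the 10 most-read transcripts, against 17.3, 13.3 and 12.2% of all genes. In H1299 against HBE TMM gave 0 higher and 1 lower, against 15.3 and 19.3%. Upper quartile scaling, leaving out the 10 most-read transcripts and coding transcripts alone each gave 2 higher in place of 3, without SRSF3. The shares of all genes higher were then 24.0, 23.9 and 34.2%. In H1299 against A549 all mapped reads gave 1 higher, against 14.1%. Of 210 recomputed ratios of single members, 143 stayed within their counting interval. The noncoding share of the family was 29.6, 35.6 and 31.3% in HBE, A549 and H1299 from summed RPKM, 20.3, 19.1 and 16.5% without SRSF3, 68.6, 70.5 and 67.1% over genes with a noncoding transcript, and 1.34, 2.03 and 2.24% as the median of these genes. The cause of these differences was not tested. Depth, with 1 read equal to 0.0290 to 0.0351 RPM, limits the transcripts with few reads, and the lack of replicates limits every comparison.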
